A study of Mus musculus with 2 samples.

Results

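The imprinted miRNA genes described here, 10 in number, lie on the plus strand of mouse chromosome 12 in the stretch from the noncoding gene Meg3 to the protein-coding gene Rtl1: Mir770, Mir673, Mir493, Mir337, Mir540, Mir665, Mir431, Mir433, Mir127 and Mir434. They were chosen by name and position, between 109563692 and 109594599 of the mouse assembly GRCm38 (mm10). Mir3070a and Mir3070b lie within these bounds on the same strand and are not among the 10. All 10 had a row in the deposited tables, out of 1973 rows for miRNA genes. The RNA was total RNA from the forebrain of newborn mice (postnatal day 0) of strain B6NCrl, sequenced as small RNA. There are 2 libraries in 1 group, replicate 2 from pup 3 and replicate 1 from pup 1, each from the forebrain of a single animal, and the labels name no treatment and no mutation. With no condition to compare, the values below are levels per locus with the SD over the animals (n = 2 in every case) and contrasts of pup 3 with pup 1. Both pups carry the same donor entry and their sex was not collected.

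MicroRNAs are short RNAs cut from hairpin precursors, and they repress messenger RNAs that pair with their seed, bases 2 to 8 from the 5′ end. The Dlk1-Dio3 region is imprinted: the noncoding RNAs Meg3, the antisense of Rtl1, Rian and Mirg and the miRNAs cut from them are made from the maternal chromosome, while the protein-coding Dlk1, Rtl1 and Dio3 are made from the paternal one. Rtl1 is a gene derived from a retrotransposon and is known in the mouse for its part in the vessels of the placenta. The miRNAs opposite Rtl1 pair perfectly with its messenger RNA and are known to direct its cleavage in the mouse, and many miRNAs of the region are enriched in the brain.

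The loci fall into 3 places. Mir770 lies 22.7 kb downstream of the annotated start of Meg3, in an exon of 1 of the 4 Meg3 transcripts that span it and in an intron of the others. Mir673, Mir493, Mir337, Mir540 and Mir665 lie between the annotated ends of Meg3 and Rtl1 and overlap no other gene that is not a miRNA. Mir431, Mir433, Mir127 and Mir434 lie opposite the coding sequence of Rtl1, which runs on the minus strand. The 10 loci span 30.9 kb, and the gaps between neighbours ran from 167 nt (Mir540 to Mir665) to 8204 nt (Mir770 to Mir673).

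RefSeq (GRCm38.p6) holds a hairpin and both mature arms for each of the 10 loci. The mature sequences of the 4 loci opposite Rtl1 are shown because they hold most of the counts. Those of Mir770 are shown because, relative to library totals, it differed least between the libraries. Capitals mark the seed.
miR-127-5p: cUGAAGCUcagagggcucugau
miR-127-3p: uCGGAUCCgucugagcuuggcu
miR-434-5p: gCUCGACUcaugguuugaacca
miR-434-3p: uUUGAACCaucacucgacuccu
miR-431-5p: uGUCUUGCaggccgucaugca
miR-431-3p: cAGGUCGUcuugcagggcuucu
miR-433-5p: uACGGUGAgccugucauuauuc
miR-433-3p: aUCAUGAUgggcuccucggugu
miR-770-5p: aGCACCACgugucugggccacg
miR-770-3p: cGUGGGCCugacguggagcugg

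The table counts reads per hairpin, so the arms are not told apart. No 2 of the 20 mature sequences share a seed, so the loci are neighbours by position and not a seed family. Over all 1738 mature sequences of the RefSeq table, 2 of the 20 seeds recur. The seed of miR-673-5p (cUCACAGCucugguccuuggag) is that of miR-6985-3p (cUCACAGCcaccuccucacag, chromosome 19), whose locus had 0.412 CPM (gene-strand counts of a locus per 1e+06 such counts in the library) in pup 3 and 1.46 CPM in pup 1. The seed of miR-540-3p (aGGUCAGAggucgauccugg) is that of miR-6915-5p (aGGUCAGAgcagauggagguucgu, chromosome 10), for which no value is given here. None of the 20 sequences (0) occurs in another hairpin of the table. Reads with several mapping places, 44.1% of all reads in pup 3 and 42.2% in pup 1, are counted at no locus.

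All 8 mature sequences of the loci opposite Rtl1 had a perfectly complementary site in the annotated Rtl1 transcript, and all 8 sites lay in its coding sequence (bases 148 to 5379 of 6358). This follows from the position of the hairpins opposite that coding sequence and is not a separate result. The sites of the arms of Mir127 and Mir434 are shown 5′ to 3′ on the Rtl1 strand, with the bases opposite the seed in capitals.
Rtl1 bases 2642 to 2663, opposite miR-127-3p: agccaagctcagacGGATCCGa
Rtl1 bases 2676 to 2697, opposite miR-127-5p: atcagagccctctgAGCTTCAg
Rtl1 bases 965 to 986, opposite miR-434-3p: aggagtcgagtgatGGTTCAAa
Rtl1 bases 1002 to 1023, opposite miR-434-5p: tggttcaaaccatgAGTCGAGc

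No mature sequence of the other 6 loci had such a site in this transcript. Both arms of Mir337 (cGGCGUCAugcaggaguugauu and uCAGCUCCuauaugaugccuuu) were instead complementary to Mir3544, a miRNA gene annotated on the opposite strand of the same stretch. Mir3544 spans both arms, so this match also follows from position. The mature sequences of the 10 loci ran from 19 to 26 nt with a GC content of 40.9 to 72.7% (median 56.8%, against 52.2% over all mature sequences of the table). The predicted folding energy of the member hairpins had a median of −0.49 kcal/mol per nt, against −0.41 over 1005 hairpins, and was lowest per nt for Mir770 (−0.62).

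Together the 10 loci held 1.69% ± 0.465 of the counts. Their share was 1.37% in pup 3 (33138 counts, 1.35 to 1.38% as the 95% Clopper-Pearson exact interval) and 2.02% in pup 1 (55488 counts, 2.01 to 2.04%). All 10 were detected with at least 10 counts in each library, against 16.8% of all rows. The members were chosen with earlier results of these data known, so this count is not a test of them. Within the same bounds but not among the 10, Mir3070a, with 13 counts in pup 3 and 16 in pup 1, was also detected. Mir3070b, with 2 counts in pup 3 and 1 in pup 1, was not. Of the gene-strand counts of all listed Dlk1-Dio3 miRNAs that had a row, the 10 loci made up 20.1% in pup 3 and 21.1% in pup 1. Listed miRNAs without a row add nothing to that sum. PCR copies of a molecule cannot be recognised in these counts, so the intervals hold counting error alone.

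The 4 loci opposite Rtl1 held most of these counts, 80.1% of the members' sum in pup 3 and 83.3% in pup 1. Mir127 (ENSMUSG00000070076, chr12:109592846-109592915), which in the mouse is known for its part in placental development through Rtl1, was the highest of the 10. It had 5574 CPM in pup 3 (95% exact interval 5481 to 5668) and 9024 CPM in pup 1 (8912 to 9136), a mean of 7299 ± 2439.5 CPM. It held 40.8% of the members' counts in pup 3 and 44.6% in pup 1, and stood at rank 25 of all rows. The loci next to it by mean level were Mir181a-1 (7597 CPM), Mir369 (7325), Mir125a (7058) and Mir15a (6913), all closer to it than its own SD.

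Mir434 (chr12:109594506-109594599) had 2189 CPM in pup 3 and 2986 CPM in pup 1 (mean 2588 ± 564). Mir431 (chr12:109590447-109590537), which in mouse neurons and muscle stem cells is known to repress Kremen1 and Pax7, had 2054 CPM in pup 3 and 2792 CPM in pup 1 (mean 2423 ± 523). The values of these neighbours in level overlapped across the pups, and Mir434 was 1.07-fold above Mir431 in either library. Mir433 (chr12:109591715-109591838) had 1125 CPM in pup 3 and 2056 CPM in pup 1 (mean 1590.4 ± 658). It was the lowest of the 4 in both pups.

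Mir770 (chr12:109563692-109563785), the locus within Meg3, had 1724 CPM in pup 3 (95% exact interval 1673 to 1777) and 1831 CPM in pup 1 (1780 to 1882), a mean of 1777 ± 75.2 CPM. Its SD was small beside that of Mir433, so the order of Mir770 and Mir433 differed between the pups. Mir770 stood 1.53-fold above Mir433 in pup 3, while in pup 1 it was 0.891 times as high.

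**Figure D1:**
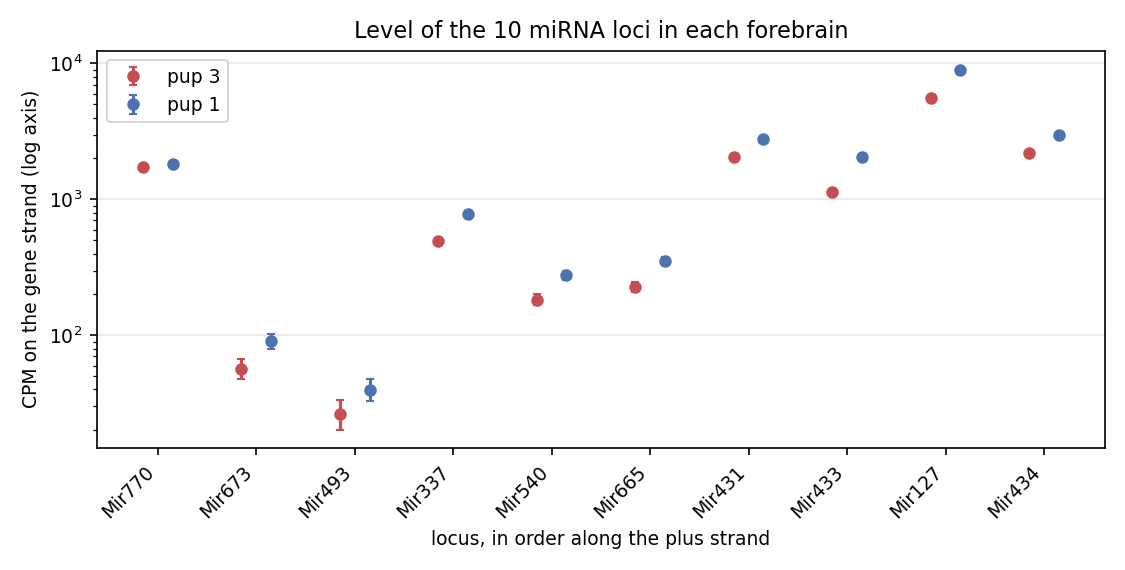
CPM on the gene strand (log axis) of the 10 loci in order along the plus strand, with pup 3 in red and pup 1 in blue; bars are 95% exact Clopper-Pearson intervals and cover counting error only. Pup 3 lies below pup 1 at each locus, by the least at Mir770 (1724 and 1831 CPM).

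The 5 loci between Meg3 and Rtl1 were lower and spanned a wide range. Mir337 (chr12:109585789-109585885) had 496 CPM in pup 3 and 781 CPM in pup 1 (mean 638 ± 202), and Mir665 (chr12:109586314-109586407) had 227 CPM in pup 3 and 354 CPM in pup 1 (mean 290.5 ± 90.4). Mir540 (chr12:109586080-109586146) had 183 CPM in pup 3 and 276 CPM in pup 1 (mean 229 ± 66.4). These 3 hairpins follow each other with gaps of 194 and 167 nt, and the values of Mir665 and Mir540 overlapped across the pups while those of Mir337 lay above both.

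Mir673 (chr12:109571990-109572080) had 56.4 CPM in pup 3 (137 counts) and 90.8 CPM in pup 1 (249 counts), a mean of 73.6 ± 24.3. Mir493 (chr12:109580233-109580315) had 26.4 CPM in pup 3 (64 counts, 95% exact interval 20.3 to 33.7 CPM) and 39.7 CPM in pup 1 (109 counts, 32.6 to 47.9 CPM), a mean of 33.1 ± 9.46. Mir493 was the lowest of the 10 in both pups. From Mir493 to Mir127, loci 12.5 kb apart, the levels differed by a wide margin: Mir127 had 211 counts per Mir493 count in pup 3 and 227 in pup 1.

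Ordered by mean CPM the loci ran Mir127, Mir434, Mir431, Mir770, Mir433, Mir337, Mir665, Mir540, Mir673 and Mir493. The pairs Mir434 and Mir431, Mir770 and Mir433, and Mir665 and Mir540 overlapped when values were compared across the pups. Within each library, Mir434 stood above Mir431 in both pups, Mir665 stood 1.24-fold above Mir540 in pup 3 and 1.28-fold in pup 1, and of these pairs only Mir770 and Mir433 changed places between the pups (n = 2). The other neighbours in the order differed by 1.36-fold (Mir431 over Mir770) to 3.12-fold (Mir540 over Mir673) in their means, with no overlap. A read of this size class covers a mature miRNA whole, so counts were not divided by length. Divided by the length of the annotated hairpin, Mir540 came before Mir665 and the rest of the order stayed. Ligation in small RNA libraries favours some sequences, so a level compares a locus between libraries better than it compares loci.

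**Figure D2:**
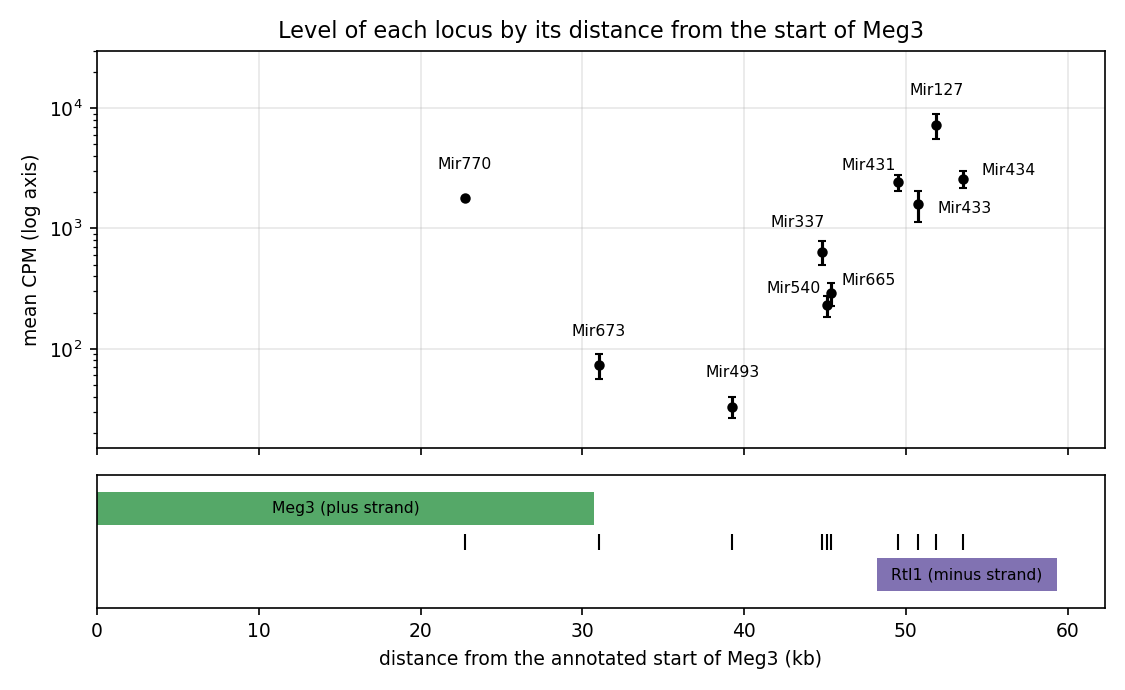
Mean CPM of each locus (log axis; bars reach from the lower to the higher pup) by the distance of its midpoint from the annotated start of Meg3 in kb, with the annotated Meg3 and Rtl1 below and black ticks at the 10 loci. The loci opposite Rtl1 lie at 1590.4 to 7299 CPM, those between the genes at 33.1 to 638 CPM, and Mir770, within Meg3, at 1777 CPM.

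Counts on the strand opposite the loci were near 0. At Mir431, Mir433, Mir127 and Mir434 this is the strand of Rtl1. Of the reads on either strand of the 10 hairpins, 0.00905% lay on the opposite strand in pup 3 (3 of 33141, 95% exact interval 0.00187 to 0.0265%) and 0.0126% in pup 1 (7 of 55495, 0.00507 to 0.0260%). Over all loci the shares were 1.87% in pup 3 and 2.41% in pup 1. These pooled shares include 11 loci whose reads lay mostly on the opposite strand, so they do not give the share of a typical locus. Most of these few reads, 2 in pup 3 and 7 in pup 1, lay opposite Mir337, where Mir3544 is annotated. Mir434 had 1 such read in pup 3 and 0 in pup 1, and the other 8 loci had 0 in both, as had 88.9% of the 414 loci with at least 10 reads on either strand. At Mir127 a count of 0 allows a share of up to 0.0222% in pup 3 and 0.0121% in pup 1. These libraries hold RNA of miRNA size, so the level of Rtl1 messenger RNA was not measured.

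The difference between the libraries was given for each locus as the log2 ratio of CPM + 1 in pup 3 over pup 1. Each side is 1 animal, so the test, Fisher's exact test of a locus against the rest of its library (two-sided, with Benjamini-Hochberg adjustment over all 400 loci of at least 10 summed counts), compares these libraries and not conditions. Relative to library totals all 10 loci were lower in pup 3, against 46.2% of the loci tested, and none (0, also at an unadjusted p under 0.05) was higher, against 10.2%. These shares include loci with few counts, where a call is harder to reach. Under a stricter filter on summed counts, which all 10 loci passed, 178 of 275 tested loci were lower and 41 higher. The 10 loci were again all lower, so they stood out less from loci with more counts. No such background is given here for the other scales. The 10 ratios had a median of −0.62, while the median of all 400 loci was −0.31. The shift common to all loci depends on the scale: DESeq2 size factors raise the ratios by 0.31 and TMM-adjusted library sizes by 0.25.

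Relative to the median of all loci, 9 of the 10 loci were lower in pup 3 and Mir770 was higher. Mir433 had the lowest ratio, −0.87 (2731 counts in pup 3 and 5638 in pup 1, adjusted Fisher's exact p = 1.20e-154), or −0.55 from the median of all loci. Mir127 followed with −0.69 (13528 counts in pup 3 and 24750 in pup 1), for which the p was too small for the software to hold. Mir673 (−0.68), Mir337 (−0.65), Mir665 (−0.64), Mir540 (−0.60) and Mir493 (−0.57) lay close together.

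Mir434 (−0.45) and Mir431 (−0.44) differed less, at −0.13 from the median of all loci. Mir770 had a ratio of −0.09 (4185 counts in pup 3 and 5021 in pup 1, adjusted Fisher's exact p = 0.00844), which is 0.23 above the median of all loci. Its direction depended on the scale. With size factors Mir770 was higher in pup 3, at 0.23 (adjusted exact binomial p = 3.12e-13), and with TMM-adjusted sizes at 0.16 (adjusted exact binomial p = 2.15e-07). Without the most abundant locus of the table in the totals, 9 of the 10 loci were lower, against 41.6% of all tested loci, and 0 higher, against 11.5%. Mir770 did not pass there, at −0.03 (adjusted Fisher's exact p = 0.439).

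With size factors 8 of the 10 loci were lower, against 20.8% of all tested loci, and 1, Mir770, was higher, against 24.5%. Mir493 did not pass there, at −0.27 (adjusted exact binomial p = 0.396). With TMM-adjusted sizes the counts were again 8 lower, against 26.0%, and 1 higher, against 20.5%, and Mir493 did not pass (−0.33, adjusted exact binomial p = 0.242).

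**Figure D3:**
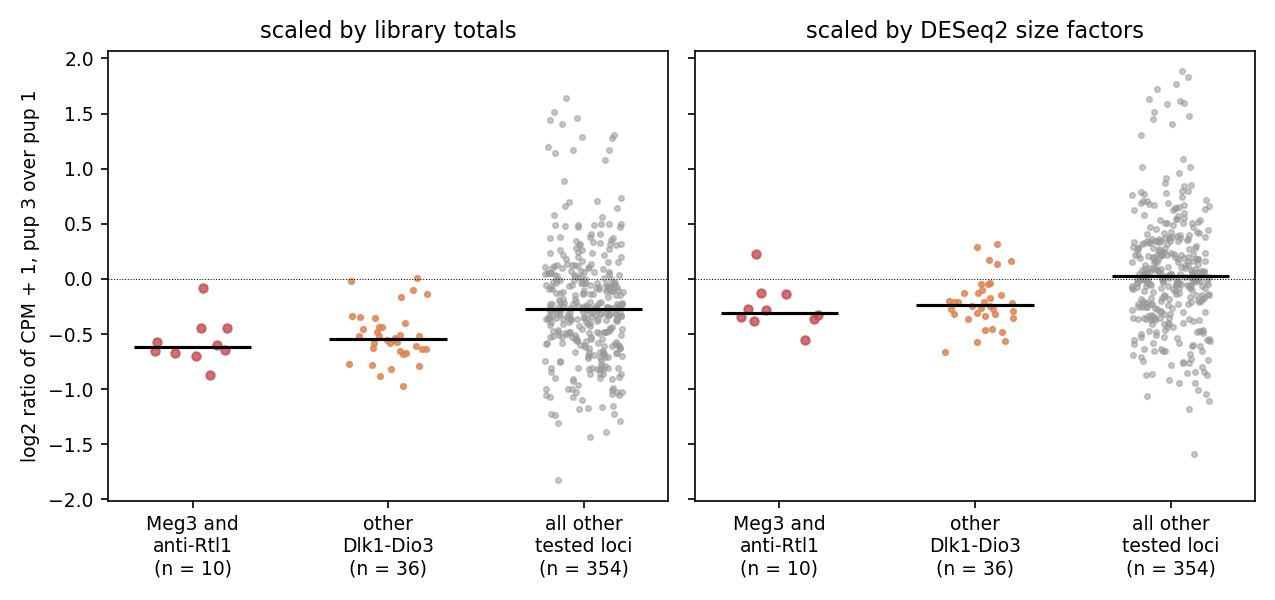
Log2 ratio of CPM + 1 in pup 3 over pup 1 for the 10 loci (red), 36 other Dlk1-Dio3 loci (orange) and 354 further loci with at least 10 summed counts (grey), with library totals as the scale on the left and DESeq2 size factors on the right; horizontal lines are medians. With totals the medians are −0.62, −0.54 and −0.27, and with size factors −0.31, −0.23 and 0.02, and the red point above the others is Mir770.

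Ratios between loci of the same library do not depend on the scale, and Mir770 differed from the other 9 loci in them. There were 0.309 Mir770 counts per Mir127 count in pup 3 and 0.203 in pup 1. The ratio in pup 3 was 1.52 times that in pup 1 (95% conditional exact interval 1.46 to 1.60, counting error only). Mir770 made up 12.6% of the members' counts in pup 3 (95% exact interval 12.3 to 13.0%) and 9.05% in pup 1 (8.81 to 9.29%).

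The 5 loci between Meg3 and Rtl1 had nearly the same level relative to Mir127 in both pups, with 11.2 (Mir337) to 211 (Mir493) Mir127 counts for each of their counts in pup 3. Their ratios in pup 3 were 1.01 (Mir673), 1.07 (Mir493), 1.03 (Mir337), 1.07 (Mir540) and 1.04 (Mir665) times those in pup 1, and each 95% interval included 1. The intervals were widest for Mir493 (0.776 to 1.48) and Mir673 (0.810 to 1.25), which had the fewest counts.

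Among the loci opposite Rtl1 the ratios moved apart. Mir431 stood 1.19-fold (1.14 to 1.24) and Mir434 1.19-fold (1.14 to 1.24) higher per Mir127 count in pup 3 than in pup 1. Mir433 was lower per Mir127 count in pup 3, at 0.886 times its value in pup 1 (0.842 to 0.932). With 1 animal on each side, spread between animals and spread between library preparations cannot be told apart, and these comparisons were chosen after the values were seen.

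**Figure D4:**
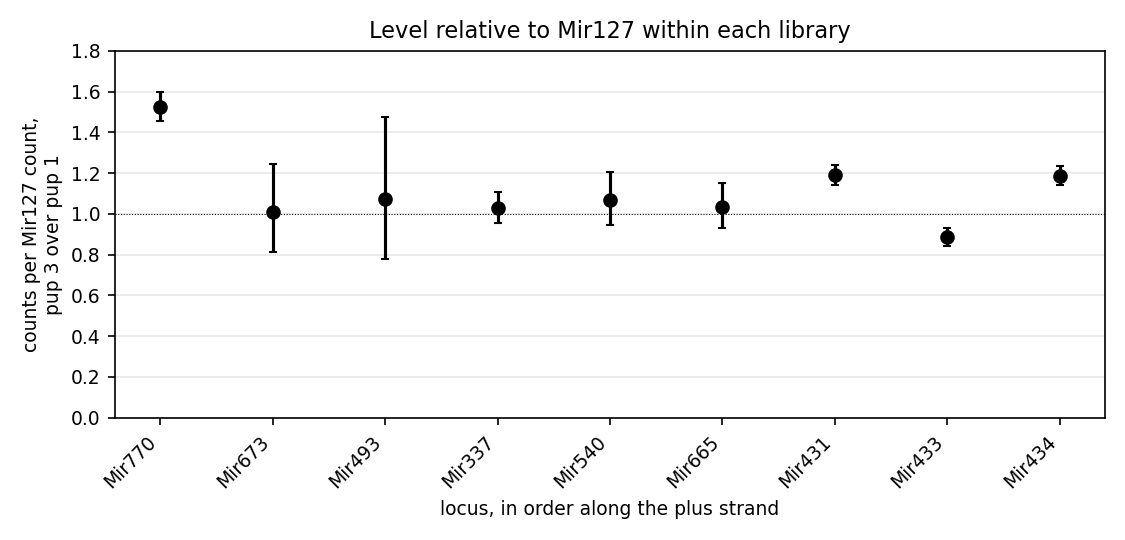
Counts per Mir127 count in pup 3 divided by the same ratio in pup 1, for the 9 other loci in order along the plus strand; bars are 95% conditional exact intervals of counting error and the dotted line marks equal ratios. Mir770 lies at 1.52, the 5 loci from Mir673 to Mir665 between 1.01 and 1.07, Mir431 and Mir434 at 1.19 and Mir433 at 0.886.

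In the rest of the imprinted region most loci were also lower in pup 3. Of 43 other listed Dlk1-Dio3 loci with a row, 36 were tested, and with Fisher's exact test on library totals 26 of them were lower in pup 3, against 46.2% of all tested loci. None (0, also at an unadjusted p under 0.05) was higher, against 10.2%. With TMM-adjusted sizes 23 were lower, against 26.0%, and 2 higher, against 20.5%. With size factors 21 were lower, against 20.8%, and 2 higher, against 24.5%. Under the stricter filter on summed counts, with library totals, 26 of 33 were lower and 0 higher, against 178 lower and 41 higher of 275 loci. The median log2 ratio of the 36 was −0.54. The 3 highest of them were Mir487b, with 21639 CPM in pup 3 and 31054 CPM in pup 1 (log2 ratio −0.52), Mir369, with 6421 CPM in pup 3 and 8230.4 CPM in pup 1 (−0.36), and Mir411, with 6846 CPM in pup 3 and 6821 CPM in pup 1 (0.01, adjusted Fisher's exact p = 0.828). Mir411 and others of the 36 had a ratio above the median of all loci, as had Mir770 among the 10 members. Together the listed loci held 5.44% of the counts in pup 3 and 7.57% in pup 1, a log2 ratio of −0.48, against −0.57 for the sum of the 10 loci from Mir770 to Mir434.

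Mir136, the further miRNA known to lie opposite Rtl1, had no row under its own identifier. The row of ENSMUSG00000070129, which the GENCODE M21 annotation calls Mir3071 and places on the minus strand over Mir136, had 1231 counts on its gene strand in pup 3 and 2370 in pup 1 (686 ± 252 CPM, log2 ratio −0.77, adjusted Fisher's exact p = 2.59e-53). The deposited tables use annotation release M4 and an earlier version of this identifier, so it is not known here whether these reads lie on the strand of Mir3071 or of Mir136. The mature sequences of Mir136 are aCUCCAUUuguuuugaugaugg (5p) and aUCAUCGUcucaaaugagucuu (3p), and both had a complementary site in the coding sequence of Rtl1.

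The promoter of Meg3 is shown because the 10 loci lie downstream of it on the same strand. The RefSeq window of 300 bases around the start of Meg3 (GRCm38.p6, chr12:109540746-109541045, plus strand, 250 bases before the start and 50 after) reads as follows, with matches to 2 motifs in capitals.
Meg3 promoter: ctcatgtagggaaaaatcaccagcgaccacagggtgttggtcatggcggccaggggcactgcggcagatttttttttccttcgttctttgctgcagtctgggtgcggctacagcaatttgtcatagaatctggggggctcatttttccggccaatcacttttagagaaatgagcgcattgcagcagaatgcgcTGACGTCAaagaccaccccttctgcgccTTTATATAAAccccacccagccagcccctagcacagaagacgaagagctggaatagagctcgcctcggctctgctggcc

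The motif of the cAMP response element, TGACGTCA, which reads the same on both strands, begins 57 bases before the start. It was found in 1.79% of 32851 promoter windows of this length. The TATA box motif TATAAA was searched on both strands and found once on each, beginning 29 and 25 bases before the start and overlapping each other, and 13.6% of windows held it. These are matches of letters, and no binding was measured here.

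The libraries were checked against markers of the labelled tissue and of other cells. Counts on gene strands totalled 2427066 in pup 3 and 2742746 in pup 1. Of 8 neuronal marker loci 6 were detected, with a summed level of 41802 CPM in pup 3 and 46456 CPM in pup 1, while 6 Hox cluster loci of hindbrain and spinal cord had 268 CPM in pup 3 and 236 CPM in pup 1, with Mir196a-1 at 0. Markers of multiciliated cells and choroid plexus (5 of 5 detected) had 7200.1 CPM in pup 3 and 11123 CPM in pup 1, and those of pituitary (4 of 4) had 3189 CPM in pup 3 and 4621 CPM in pup 1. Epithelial markers (6 of 6) had 9345 CPM in pup 3 and 3704 CPM in pup 1. Red blood cell markers (3 of 3) had 71.3 CPM in pup 3 and 88.2 CPM in pup 1, white blood cell markers (3 of 3) 387 CPM in pup 3 and 395 CPM in pup 1, and muscle markers (2 of 4, with Mir1a-1 and Mir133a-1 at 0) 41.6 CPM in pup 3 and 21.9 CPM in pup 1. Some markers are numbered gene copies, among them Mir1a-1, Mir133a-1, Mir196a-1, Mir124a-1, Mir128-1 and Mir7-1. Where copies give the same mature sequence, its reads cannot be assigned to a copy and are missing from these sums. A 0 or a low sum at such markers therefore does not show that a cell type was absent. How much was lost in this way was not tested. The part of these cell types in the differences between the libraries was not tested. In whole tissue, fewer cells of a type and less RNA per cell cannot be told apart.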

How the data were processed

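For each library the authors deposited raw counts of reads for every miRNA gene, not normalized. The deposited description names assembly mm10 and annotation release M4; the aligner and counter were not given in the sources used here. The 3 columns of counts are taken, from their layout and values, as both strands, the gene strand and the opposite strand; the gene strand was used. The 4 rows that name no gene (58.7% of the reads of pup 3, 58.8% of those of pup 1) were left out of totals. Gene names, positions and the Rtl1 transcript came from GENCODE M21 (GRCm38), with 1894 of 1973 rows matched; sequences came from RefSeq. Bounds of hairpins in release M4 may differ.

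The labels name separate pups, so the libraries count as 2 samples. Over 331 detected loci they differed by more than sampling noise (chi-square divided by its degrees of freedom was 209), so neither is a copy of the other. The planned edgeR quasi-likelihood test has no contrast in 1 group, so Fisher's exact test was used. CPM are scaled to 1e+06, and the threshold was an adjusted p of 0.05. A count of 0 was given a limit of 3 counts. The members and lists were chosen with earlier results of these data known. Named loci are the 10 members, the 3 highest other Dlk1-Dio3 loci, the row at Mir136, the 2 loci on either side of Mir127 in rank, and loci that share a seed. Mir3544 and the lower rows of the stretch were named after their values were seen. Alternatives changed scaling, filter, pseudocount, strand or library. Software: ViennaRNA 2.7.2 (folding), edgeR 4.0.16 (TMM) and DESeq2 1.42.0 (size factors) in R 4.3.3, and scipy 1.17.1, pandas 2.3.3, numpy 2.4.6 and matplotlib 3.10.9 in Python 3.11.15.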

Additional observations from a re-analysis of the deposited data

How the results depend on the processing

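The summed share of the 10 loci, 1.69%, became 2.31% without the most abundant locus in the total and 0.698% with all reads as the total, by construction of these totals; leaving out a library gave 1.37 to 2.02%. In the order by level 2 loci changed place when counts were divided by locus length, and 0 to 2 when a library was left out (Mir770 and Mir433). The number of the 10 loci called higher in pup 3, 0 with totals, was 1 (Mir770) with TMM-adjusted sizes and with size factors. For other Dlk1-Dio3 loci it was 2 with either of these scales and 1 without the most abundant locus. The log2 ratio of Mir770 turned to 0.16 with TMM-adjusted sizes and 0.23 with size factors. Both scales were estimated from these counts and raised the ratios of the tested loci in common. Apart from Mir770 and Mir493, the direction and call of the other 8 loci stayed the same under the 8 alternatives run. Among these, the changes of pseudocount kept the same p-values and the changes of filter altered only their adjustment, so these settings could change little. The share of opposite-strand counts, 0.0108%, fell to 0.00157% without Mir337 and ran from 0.00905 to 0.0126% when a library was left out. No paired analysis was possible because the series holds 1 group. With 64 counts in pup 3 and 109 in pup 1, Mir493 had the widest intervals of the 10 loci relative to its level, and differences between animals cannot be estimated beyond n = 2.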

Other observations

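Further miRNA genes are annotated in or beside the same stretch and had few counts. Mir1906-1, within Meg3, and Mir432, opposite Rtl1, had 0 counts in both pups, which allows up to 1.24 CPM in pup 3 and 1.09 CPM in pup 1. Mir3070a, between Mir665 and Mir431, had 13 counts in pup 3 and 16 in pup 1, and its neighbour Mir3070b had 2 in pup 3 and 1 in pup 1. The 5p sequence of these neighbours is the same (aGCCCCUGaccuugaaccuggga), so reads of it map to several places and are counted at neither; how much this lowered their counts was not tested. The mature sequence of Mir432 (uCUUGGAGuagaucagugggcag) occurs in no other hairpin of the RefSeq table. Loci of 5.59 CPM (Mir3070a) and 7299 CPM (Mir127) thus lie 4.81 kb apart on the plus strand.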
